A study of Mus musculus with 4 samples.

Results

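The genes described here are Gpx4, 8 further genes for selenoproteins (Gpx1, Gpx3, Selenop, Selenow, Selenok, Txnrd1, Txnrd2 and Txnrd3) and Lrp8, which encodes a receptor for selenoprotein P. They were chosen by name, and all 10 were found among the 44509 named genes of the deposited table. RNA of mouse testis was sequenced in 4 libraries. According to the source labels, 2 came from testes of mice made oligozoospermic with busulfan, an alkylating drug toxic to germ cells. The other 2 came from mice of the same busulfan model that were then treated with Cus-1, described in the series title as a resin glycoside of a cuscutae extract. Both groups therefore carry the busulfan injury, and the set used here has no untreated testis. The labels give no strain, age, dose or time, and they speak of 100 mg of testis from each group without saying whether animals were pooled, so p-values measure only the spread between these libraries, which may be technical. The sample titles start with BPA in the busulfan group and with CUS2 in the treated group, which the labels do not explain, so the grouping rests on the source label. The series title names GPX4 and ferroptosis, a cell death driven by lipid peroxides, as what Cus-1 is studied for.

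Selenoproteins carry selenocysteine, an amino acid that holds selenium in place of the sulphur of cysteine. It is inserted at a UGA codon, elsewhere a stop signal, by a dedicated transfer RNA and by factors that read a hairpin in the messenger RNA. Selenium reaches the testis mainly as selenoprotein P, which the liver and other tissues secrete and which Lrp8, on Sertoli cells, takes up. In the testis most of the selenium ends in Gpx4, the phospholipid hydroperoxide peroxidase, which guards membranes against ferroptosis and also becomes a structural protein of the sperm midpiece. Txnrd3, thioredoxin glutathione reductase, is a testis enzyme of spermatids.

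The selenocysteine codon is what 9 of the 10 genes share, all but Lrp8, and it is shown here because it is where their proteins carry selenium. In the GENCODE M21 annotation of mm10 the codon of Gpx4 lies in an exon at chr10:80054737-80054739 on the plus strand, and it is codon 129 of the 253 codons of its longest coding transcript. Each line gives coding sequence 5′ to 3′ from the GENCODE M21 transcripts, with the selenocysteine codon in capitals.
Gpx4: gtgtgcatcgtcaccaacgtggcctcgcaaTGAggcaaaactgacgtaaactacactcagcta
Gpx1: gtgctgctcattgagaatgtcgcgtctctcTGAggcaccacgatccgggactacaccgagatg
Gpx3: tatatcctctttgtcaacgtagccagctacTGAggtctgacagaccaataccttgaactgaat
Selenop: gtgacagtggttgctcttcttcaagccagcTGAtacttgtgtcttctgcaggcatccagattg
Txnrd1: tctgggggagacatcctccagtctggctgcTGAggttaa
Txnrd3: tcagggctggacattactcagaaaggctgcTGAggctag

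In the 3 peroxidases the codon sits in the first part or the middle of the protein, at codon 47 of 201 in Gpx1 and codon 73 of 226 in Gpx3. In Txnrd1, Txnrd2 and Txnrd3 it is followed by 1 more codon and then the stop, so their lines end there. The base after the codon is G in 8 of the 9 genes and in 12 of all 24 annotated selenoprotein genes, and T in Selenop. Selenop has 10 selenocysteine codons, of which the first is printed, and the other 8 genes have 1 each.

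The groups differed in the levels of cell type marker genes. FPKM, the authors' unit, scales fragments by gene length and by library size. From the smallest steps between low values, the libraries were estimated to hold enough fragments to give Gpx4 between 7002 and 12455 and Txnrd2, the least counted of the 10 genes, between 256 and 352. Of 20 round spermatid genes 19 had both Cus-1 values above both busulfan values, and their summed level was 634 and 897 FPKM with busulfan and 1760 and 1265 FPKM with Cus-1. All 25 Sertoli cell genes had both Cus-1 values below, with sums of 9837 and 7822 FPKM against 4952 and 5760 FPKM. Leydig cell genes summed to 28565 to 29320 FPKM with busulfan and 14395 to 21219 FPKM with Cus-1, and macrophage genes to 815 to 1011 FPKM and 573 to 702 FPKM. Insl3 made up most of the Leydig sum, at 22947 and 20478 FPKM with busulfan against 10265 and 14601 FPKM with Cus-1. Of 12 tested Leydig genes 8 had both Cus-1 values below and 4 overlapped. Of 16 macrophage genes 11 had both below, 2 had both above and 3 overlapped. Of all tested genes 31.7% had both below and 36.6% both above. FPKM is relative to the whole library, so a gene's value also falls when RNA of other cells takes a larger share. In bulk tissue, fewer cells of a type, less RNA per cell and a smaller share beside other cells cannot be told apart. Of 9 epididymis genes in the table, 6 were at 0.46 FPKM or less in every library, among them Crisp1, Adam7 and Gpx5. Lcn2, which other cells also express, made up nearly all of that list's sum, and without it the sum was 6.5 to 7.05 FPKM with busulfan and 2.23 to 4.69 FPKM with Cus-1.

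Gpx4, Txnrd3 and Selenow (3 of the 10 genes) had both Cus-1 libraries above both busulfan libraries, and Gpx1, Gpx3, Selenop and Txnrd2 (4 genes) had both below, while Selenok, Txnrd1 and Lrp8 overlapped. Among the 19837 genes tested, 36.6% had both above and 31.7% had both below, so the shares among the 10 genes lie near those of all genes. The test was limma on log2(FPKM + 1), adjusted by Benjamini-Hochberg over all tested genes. No gene passed an adjusted p of 0.05 (0% of all tested genes). At an unadjusted limma p under 0.05, Txnrd3 was higher, as were 18% of all tested genes, and Gpx3 was lower, as were 9.96%. Txnrd3 missed that limit when busulfan 1 was left out, and Gpx3 missed it when either busulfan library was. In 10 of 10 genes Cus-1 1 lay farther from the busulfan mean than Cus-1 2 did. The share of all tested genes with this order was not computed, so the 10 of 10 cannot be set against a background. Summed levels of the round spermatid, Sertoli, Leydig and macrophage genes had the same order, while that of the blood genes did not. The order was thus also seen in sums of other genes, and whether it is commoner among the 10 genes was not tested.

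**Figure D1:**
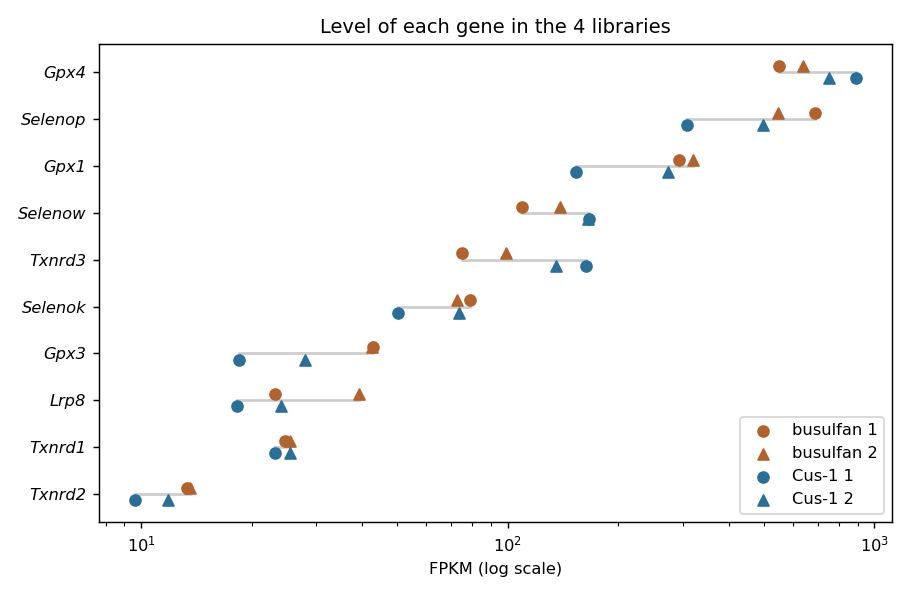
FPKM on a log scale for each gene in the 4 libraries, with circles for the first and triangles for the second library of a group. Gpx4 spans 548 to 893 FPKM with both Cus-1 points on the right, while Gpx3 and Selenop have both Cus-1 points on the left.

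Gpx4 (chr10:80047166-80056439, mm10, plus strand) was the most abundant of the 10 genes on average. It was at 548 and 638 FPKM with busulfan against 893 and 751 FPKM with Cus-1. Both Cus-1 libraries lay above both busulfan libraries, by 1.39-fold in the means (593 ± 63.6 against 822 ± 100 FPKM, SD, n = 2), and the nearest libraries of the groups, 638 and 751 FPKM, were about as far apart as the 2 libraries of a group. The log2 fold change was 0.47 (SE 0.20, limma adjusted p = 0.196) and stayed between 0.34 and 0.59 when any 1 library was left out. The medians of the spermatocyte genes (0.91), the round spermatid genes (1.11) and the elongating spermatid genes (1.21) were larger, and the gap was not tested. With 1 library left out these medians ran from 0.61 to 1.15, from 0.74 to 1.57 and from 0.57 (Cus-1 1 left out) to 1.91 (Cus-1 2 left out). With each library centred on the round spermatid genes, which moved the median of all genes to -1.18, Gpx4 was at -0.76. The table does not separate the cytosolic, mitochondrial and nuclear forms of Gpx4, which share the selenocysteine codon printed above. A processed copy, Gpx4-ps2, matches 73.7% of the Gpx4 transcript at 99.7% identity, and AC122253.3 matches 51.3% at 95.1% identity. Neither name was found in the deposited table. How the counting treated fragments shared with them is not stated, so the level of Gpx4 is uncertain to that extent.

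Txnrd3 (chr6:89643988-89675529, plus strand) had the largest positive log2 fold change of the 10 genes. It was at 75 and 98.6 FPKM with busulfan against 163 and 135 FPKM with Cus-1, so the groups did not overlap. The means were 86.8 ± 16.7 and 149 ± 19.8 FPKM (SD, n = 2), with a log2 fold change of 0.78 (SE 0.20, limma adjusted p = 0.152, unadjusted p = 0.0118). The value ran from 0.59 without busulfan 1 to 0.98 without busulfan 2. Centred on Sertoli genes it was 1.40 (limma adjusted p = 0.0228), with the median of all genes moved to 0.66, and centred on round spermatid genes it was -0.44.

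The other thioredoxin reductases were not higher in both Cus-1 libraries. Txnrd1, the cytosolic enzyme, was at 24.6 and 25.5 FPKM with busulfan against 23.1 and 25.4 FPKM with Cus-1. Its groups overlapped, and the log2 fold change was -0.05 (SE 0.15, limma adjusted p = 0.845). Txnrd2, the mitochondrial enzyme, was at 13.3 and 13.6 FPKM against 9.60 and 11.8 FPKM (-0.31, SE 0.19, limma adjusted p = 0.296). Both Cus-1 libraries were lower there. Without Cus-1 1 the value was -0.17.

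Within each library, Txnrd3 was 3.04 and 3.86 times Txnrd1 with busulfan and 7.06 and 5.32 times Txnrd1 with Cus-1. The log2 ratio of FPKM + 1 was 1.74 ± 0.24 and 2.57 ± 0.28 (SD, n = 2), a difference of 0.83 (exact permutation test, two-sided, p = 0.33, adjusted p = 0.40 over 6 pairs). For Txnrd3 and Txnrd2 the difference was 1.09 (exact p = 0.33). With 2 libraries against 2, the smallest p such a test can give is 0.33. A plain ratio of FPKM within a library does not depend on how libraries are scaled.

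Selenow encodes a small selenoprotein of the cytosol. The busulfan libraries held 110 and 139 FPKM, the Cus-1 libraries 167 and 165 FPKM. The Cus-1 libraries were close together and above both busulfan libraries, with a log2 fold change of 0.42 (SE 0.17, limma adjusted p = 0.188). Without busulfan 1 the value was 0.25. Centred on round spermatid genes it was -0.80.

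Gpx3 (chr11:54902453-54910377, plus strand), the secreted glutathione peroxidase of plasma, had the largest negative log2 fold change of the 10 genes. It was at 42.9 and 42.7 FPKM with busulfan against 18.4 and 27.9 FPKM with Cus-1. The busulfan libraries were nearly equal and both Cus-1 libraries lay below them (42.8 ± 0.141 against 23.2 ± 6.69 FPKM, SD, n = 2, log2 fold change -0.89, SE 0.23, limma adjusted p = 0.152, unadjusted p = 0.0120). It was at -0.60 without Cus-1 1 and at -0.27 when centred on Sertoli genes. Gpx3 is abundant in the epididymis, and the part of epididymis genes, whose levels are given above, was not tested.

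Gpx1, the cytosolic glutathione peroxidase of most cells, was at 293 and 319 FPKM with busulfan against 153 and 274 FPKM with Cus-1. Both Cus-1 libraries were lower, but Cus-1 2 lay near busulfan 1. The log2 fold change was -0.58 (SE 0.30, limma adjusted p = 0.250). Leaving out Cus-1 1 gave -0.16 and leaving out Cus-1 2 gave -0.99. Centred on Sertoli genes it was 0.04.

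The ratio of Gpx4 to each of the other peroxidases was larger in both Cus-1 libraries than in either busulfan library. Gpx4 was 1.87 and 2 times Gpx1 with busulfan and 5.83 and 2.74 times Gpx1 with Cus-1, a log2 ratio difference of 1.04 (exact p = 0.33), or 0.50 without Cus-1 1 and 1.59 without Cus-1 2. Against Gpx3 the ratio was 12.8 and 14.9 with busulfan and 48.4 and 26.9 with Cus-1, a difference of 1.36 (exact p = 0.33). In both pairs the groups did not overlap, and the spread between the Cus-1 libraries (SD 0.77 and 0.58) was wider than that between the busulfan libraries (0.07 and 0.16).

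**Figure D2:**
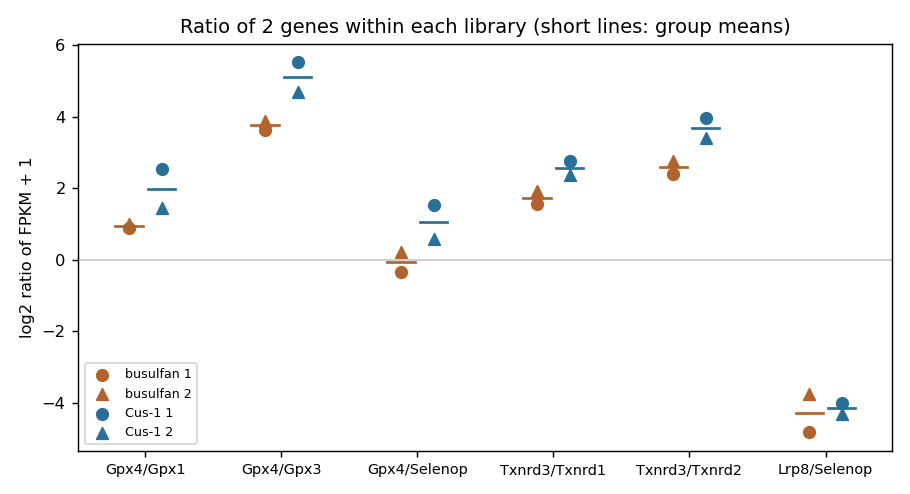
Log2 ratio of FPKM + 1 for 6 gene pairs within each library, with group means as short lines. The Cus-1 points lie above the busulfan points in 5 pairs, from a difference of 0.83 for Txnrd3 over Txnrd1 to 1.36 for Gpx4 over Gpx3, and overlap for Lrp8 over Selenop.

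Selenop (chr15:3268547-3280508, plus strand) encodes selenoprotein P, the carrier that brings selenium to tissues, and its RNA in these libraries is that of the testis itself. It was at 687 and 546 FPKM with busulfan against 308.5 and 498 FPKM with Cus-1. The groups did not overlap, although Cus-1 2 lay near busulfan 2 (617 ± 99.4 against 403 ± 134 FPKM, SD, n = 2, log2 fold change -0.64, SE 0.29, limma adjusted p = 0.207). The value was -0.30 with Cus-1 1 left out, -0.99 with Cus-1 2 left out, and -0.03 when centred on Sertoli genes. Selenop shares 15.4% of its exon bases with Ccdc152 on the opposite strand, which was at 3.15 to 8.42 FPKM and so far below it. Whether strand was used in counting is not given in the sources used here. Selenop was close to the level of Gpx4 with busulfan, where the 2 genes overlapped, and Gpx4 was 2.89 and 1.51 times Selenop with Cus-1. The difference in their log2 ratio was 1.11 (exact p = 0.33), or 0.64 without Cus-1 1.

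Lrp8 (chr4:107802261-107876840, plus strand), the receptor that takes up selenoprotein P, was at 23.1 and 39.4 FPKM with busulfan against 18.3 and 24.1 FPKM with Cus-1. The groups overlapped, and busulfan 2 stood apart from the other 3 libraries. The log2 fold change was -0.51 (SE 0.30, limma adjusted p = 0.292). Leaving out busulfan 2 gave -0.13 and leaving out busulfan 1 gave -0.88. The Sertoli genes had a median log2 fold change of -0.71, and centred on them Lrp8 was at 0.11. Sertoli genes also summed to less in busulfan 2 than in busulfan 1, the reverse of Lrp8. The log2 ratio of Lrp8 to Selenop was -4.83 and -3.76 with busulfan and -4.01 and -4.31 with Cus-1, which overlapped (difference 0.14, exact p = 1).

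Selenok, a selenoprotein of the endoplasmic reticulum membrane, was at 78.7 and 72.5 FPKM with busulfan against 50.3 and 73.8 FPKM with Cus-1. Cus-1 2 lay within the busulfan range, and only Cus-1 1 was lower (log2 fold change -0.31, SE 0.22, limma adjusted p = 0.370). Without Cus-1 1 the value was -0.03. Of its near-identical copies, Selenok-ps1 and Gm48228 were at 0.59 FPKM or less, and the names of others were not found in the deposited table.

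In order of mean level the genes ran from Gpx4 and Selenop through Gpx1, Selenow, Txnrd3, Selenok, Gpx3, Lrp8 and Txnrd1 to Txnrd2. Neighbours that overlapped within the busulfan group were Gpx4 with Selenop, Txnrd3 with Selenok, and Lrp8 with Txnrd1. Within the Cus-1 group Selenow and Gpx1 overlapped, as did Gpx3 and Lrp8, and Lrp8 and Txnrd1.

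The remaining selenoprotein genes also lay on both sides of 0. Of the 15 genes on this list 14 were found in the deposited table (all but Gpx2) and 11 were tested. Their median log2 fold change was -0.25 against 0.04 for all tested genes. By unadjusted limma p under 0.05 there were 2 higher genes and 3 lower ones (18% and 9.96% of all tested genes), and 0 passed the adjusted threshold. The groups stood apart in 8, with Cus-1 above in 3 and below in 5 (36.6% and 31.7% of all tested genes). Sephs2, which makes the selenium donor for selenocysteine and is itself a selenoprotein, was at 46.0 and 66.7 FPKM with busulfan against 102 and 86.8 FPKM with Cus-1 (0.75, SE 0.23, limma adjusted p = 0.152). Selenov was at 6.73 and 9.80 FPKM against 31.3 and 12.7 FPKM, with Cus-1 1 far above the other 3 libraries (1.2, SE 0.45). Selenon, a protein of the endoplasmic reticulum needed in muscle, had the most negative value of this list at -0.80 (SE 0.25).

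The most abundant of these genes were Selenos, Selenof and Selenot, which act in the endoplasmic reticulum. Selenos was at 142 and 175 FPKM with busulfan against 169 and 198 FPKM with Cus-1, and Selenof at 164 and 177 FPKM against 137 and 172 FPKM, so both overlapped. Selenot was at 114 and 109 FPKM against 73.7 and 90.7 FPKM (-0.44, SE 0.17, limma adjusted p = 0.174). The deiodinase genes Dio1, Dio2 and Dio3 stayed at 0.71 FPKM or less and were not tested.

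**Figure D3:**
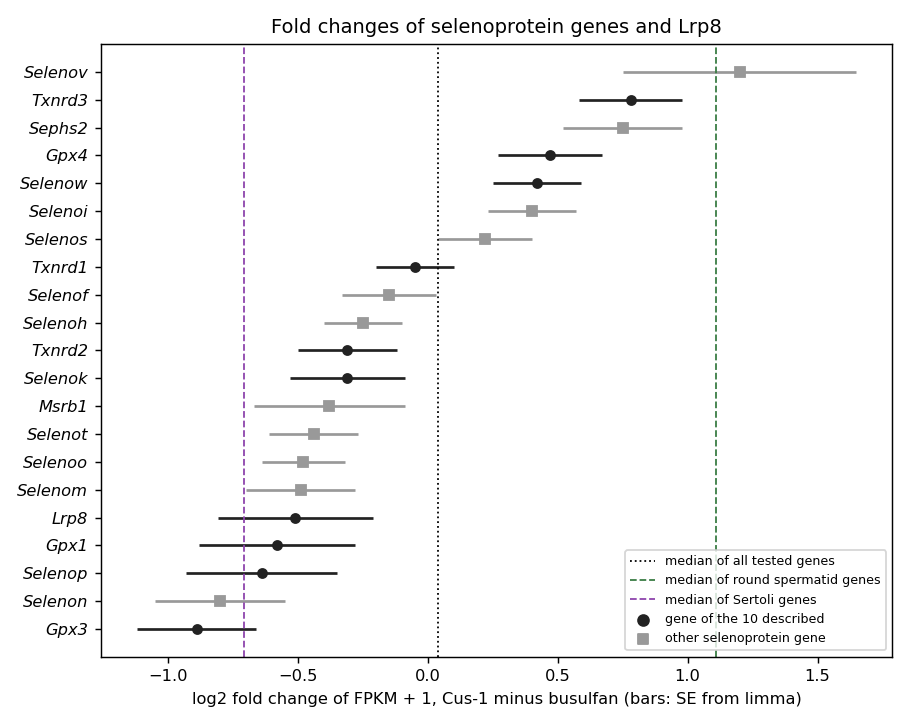
Log2 fold change of FPKM + 1, Cus-1 minus busulfan, with its SE from limma, for the 10 genes (black circles) and the 11 other tested selenoprotein genes (grey squares). Selenoprotein genes lie on both sides of the median of all tested genes (0.04), between the Sertoli median (-0.71) and the round spermatid median (1.11) except Gpx3, Selenon and Selenov.

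Summed selenoprotein RNA overlapped between the groups, while the Gpx4 share was larger and the Selenop share smaller in both Cus-1 libraries. The 23 selenoprotein genes in the table summed to 2515 and 2605 FPKM with busulfan and to 2419 and 2675 FPKM with Cus-1. Gpx4 was 21.8% and 24.5% of that sum with busulfan and 36.9% and 28.1% with Cus-1, and Selenop 27.3% and 21% against 12.8% and 18.6%. When each gene was multiplied by its number of selenocysteine codons, a measure added after the values were seen, the sums were 8698 and 7523 with busulfan and 5197 and 7154 with Cus-1. Selenop, with its 10 codons, held 79.0% and 72.6% of this weighted sum with busulfan and 59.4% and 69.5% with Cus-1, and Gpx4 held 6.30% and 8.48% against 17.2% and 10.5%. Without Selenop the weighted sums were 1828 and 2059 against 2112 and 2178. These are sums of RNA levels, and how many of the codons were translated was not measured.

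**Figure D4:**
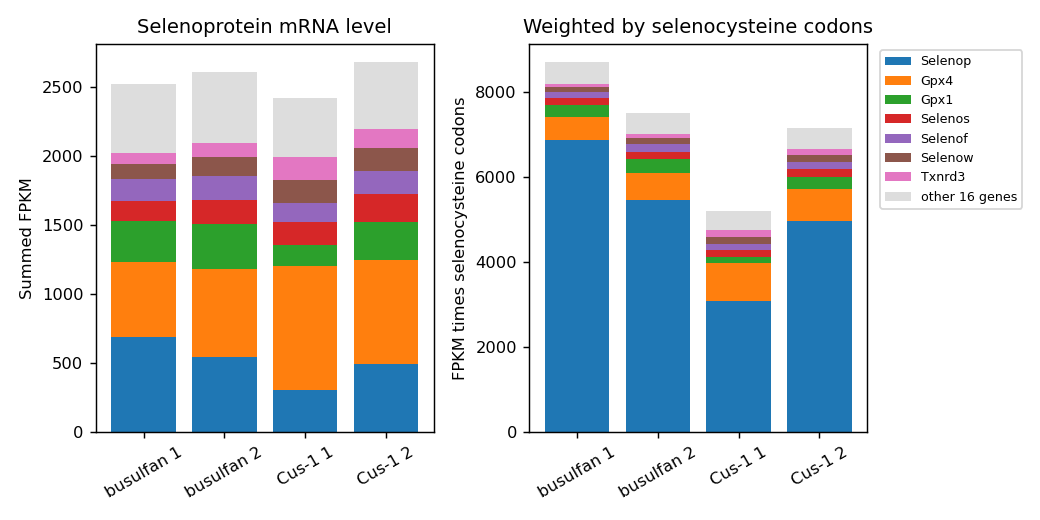
Stacked levels of 23 selenoprotein genes in each library, as summed FPKM (left) and as FPKM multiplied by the number of selenocysteine codons (right). The plain sums stay between 2419 and 2675, the orange Gpx4 part is larger with Cus-1, and Selenop makes up 59.4% to 79.0% of the weighted sums.

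Genes of the machinery that makes and inserts selenocysteine lay on both sides of 0. All 13 were tested, with a median of 0.04, equal to that of all tested genes, and the groups stood apart with Cus-1 above in 5 genes and below in 4, close to the 36.6% and 31.7% of all tested genes. By unadjusted limma p under 0.05, 1 was higher (Sephs2) and 1 was lower, against 18% and 9.96%. The latter was Secisbp2l, a relative of the protein that binds the selenocysteine hairpin, at 22.8 and 19.4 FPKM against 13.0 and 15.9 FPKM (-0.52, SE 0.19, limma adjusted p = 0.170). The most abundant were Rpl30, a ribosomal protein, at 0.38 (SE 0.15), Ncl, nucleolin, at -0.06 (SE 0.14), and Sars1, which loads serine on transfer RNA, at -0.23 (SE 0.20). Of the genes for selenium uptake and binding, 4 of 5 were tested with a median of -0.51, and 3 had both Cus-1 values below (31.7% of all tested genes). The median was -0.33 without Cus-1 1. Lrp1, a large endocytic receptor, was at -0.54 (SE 0.20), Selenbp1, which binds selenium, at -0.57 (SE 0.23) and Selenbp2 at -0.48 (SE 0.22). Slc7a11, a chain of the cystine transporter, was the other gene tested. It was at 2.71 and 3.72 FPKM with busulfan against 1.71 and 3.69 FPKM with Cus-1 and overlapped (-0.23, SE 0.35). Lrp2, the kidney receptor for selenoprotein P, stayed at 0.09 FPKM or less.

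The partners of the thioredoxin reductases also lay on both sides. Of 17 genes, with a median of -0.19, Cus-1 stood above in 3 and below in 8, against 36.6% and 31.7% of all tested genes. By unadjusted limma p under 0.05 there was 1 higher gene and there were 5 lower ones, against 18% and 9.96% of all tested genes. Leaving out Cus-1 1 gave a median of -0.09 and leaving out Cus-1 2 one of -0.40. Txnip, the inhibitor of thioredoxin, stood at 421 and 369 FPKM with busulfan, while both Cus-1 libraries held 184 FPKM (-1.09, SE 0.16, limma adjusted p = 0.152). The peroxiredoxins Prdx1 and Prdx2, which thioredoxin reduces, were at -0.40 (SE 0.24) and -0.70 (SE 0.23). Txndc8, a thioredoxin of spermatids, was at 8.66 and 23.4 FPKM against 50.8 and 21.6 FPKM and overlapped (1.16, SE 0.59). Txn1, the thioredoxin that Txnrd1 reduces, and Nme8, a thioredoxin of the sperm tail, were chosen after their values were seen. Txn1 was at 87.5 and 92.6 FPKM with busulfan and 34.5 and 55.5 FPKM with Cus-1 (-1.02, SE 0.25, limma adjusted p = 0.152), and Nme8 was at 24.4 and 32.2 FPKM against 60.9 and 44.5 FPKM (0.87, SE 0.23, limma adjusted p = 0.152).

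Genes with the most similar profiles were sought among 9389 tested genes with a mean of 10 FPKM or more, by Euclidean distance between log2(FPKM + 1) values centred over the 4 libraries. The nearest to Gpx4 were Brap (distance 0.0152), Mapk6 (0.0213) and Thap7 (0.0237), with 131 genes within 0.1. Those nearest to Txnrd3 were Tprn (0.0118), Senp2 (0.0214) and Chchd6 (0.0230). For Selenop they were Rhoc (0.0522), Tyrobp, an adaptor of myeloid cells (0.0606), and Slc25a30 (0.0626), with 19 genes within 0.1. Lrp8 had 1 gene within that distance, mt-Rnr1 (0.0715), followed by Aox3 (0.135) and Mrps21 (0.143). With 4 libraries such likeness is a description only.

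Under the settings other than centring, quantile and upper-quartile scaling among them, 9 of the 10 genes kept their direction, and Txnrd1 was at 0.02 without Cus-1 1. Centring on a marker list adds the same amount to the log2 fold change of every gene, and it moved the median of all tested genes from 0.04 to 0.66 (Sertoli genes) or to -1.18 (round spermatid genes). Values after centring therefore give each gene relative to those markers. Centred on Sertoli genes, Gpx1, Selenok, Txnrd1, Txnrd2 and Lrp8 turned positive, and Gpx3 and Selenop stayed negative. Centred on round spermatid genes, Gpx4, Selenow and Txnrd3 turned negative, as all 10 genes then were. The part of these marker differences in each fold change was not tested.

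**Figure D5:**
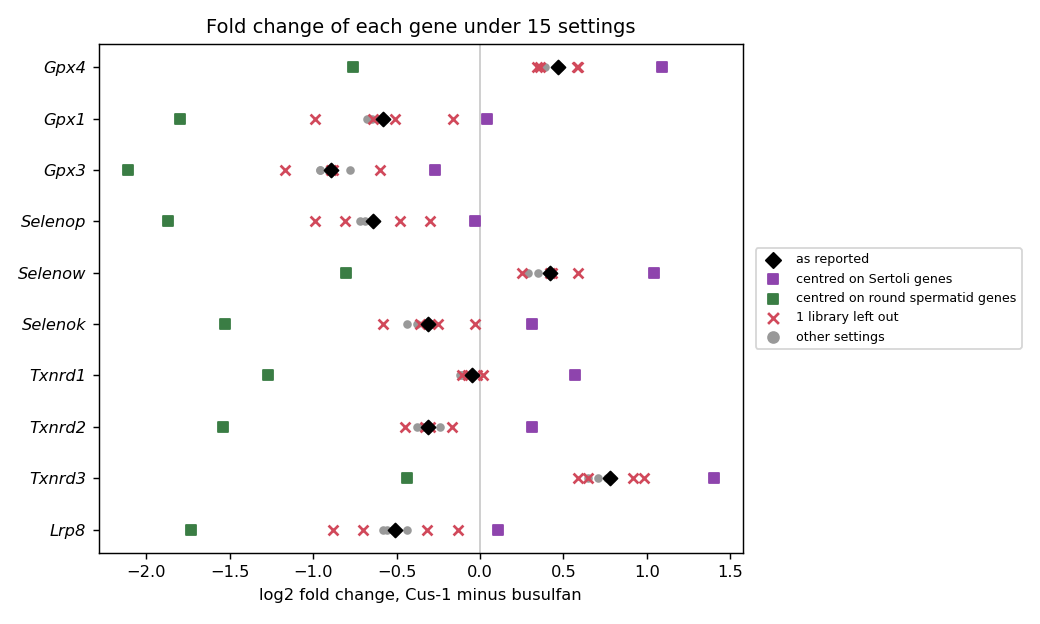
Log2 fold change of each gene under 15 settings, with the reported value as a black diamond. Centring on Sertoli genes (purple) shifts every gene alike and moves Gpx4 from 0.47 to 1.09 and centring on round spermatid genes (green) to -0.76, while leaving out 1 library (red) keeps it between 0.34 and 0.59.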

How the data were processed

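The authors deposited 1 table of FPKM values per gene and library, on mm10, a build named in the submitters' processing notes. Aligner, counter, annotation and strand setting: not given in the sources used here. Of 45536 rows with values, 910 without a gene name (0.641% to 0.688% of a library's summed FPKM) were left out, and for 115 symbols on several rows the row with the highest mean was used. The 19837 genes that reached 1 FPKM in 2 or more of the 4 libraries were tested on log2(FPKM + 1) with limma 3.58.1 (trend option) in R 4.3.3, a scale that understates changes of low genes. Benjamini-Hochberg adjustment was over all tested genes, at 0.05, and the code was tested on simulated data. Replicates were numbered in order of submission, so the numbers pair nothing. Depth was estimated from the FPKM step that 1 fragment gives in genes with 1 transcript of 300 to 2000 bases. If the authors' gene lengths differed, these estimates shift. Gene pairs were compared by exact permutation. Selenocysteine codons and sequences came from GENCODE M21 on the same build. One listed symbol was matched by a RefSeq synonym (Sars1).

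The members and lists were chosen with earlier results of these data known. Besides the 10 genes, the text names the 3 most abundant genes and the 2 with the largest absolute fold change of each related list, and the 3 nearest profiles for Gpx4, Txnrd3, Selenop and Lrp8. Alternatives were pseudocounts of 0.1 and 5, no filter or a 5 FPKM filter, quantile and upper-quartile scaling, centring on Sertoli or round spermatid genes, no trend, summed rows of a symbol, and each library left out.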

Additional observations from a re-analysis of the deposited data

How the results depend on the processing

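No paired analysis was possible because the labels give the groups no shared replicate numbers. Of 140 values of the 10 genes under alternatives, 130 kept their direction and their side of the adjusted threshold. Centred on Sertoli genes, Gpx1 was at 0.04, Selenok at 0.31, Txnrd1 at 0.57, Txnrd2 at 0.31 and Lrp8 at 0.11, and Txnrd3 passed at 1.40. Centred on round spermatid genes, Gpx4 was at -0.76, Selenow at -0.80 and Txnrd3 at -0.44. With 1 library left out Txnrd1 ran from -0.11 to 0.02. These centrings moved the median of all genes to 0.66 and -1.18, against -0.06 to 0.06 in the other settings. The number of the 10 genes past the adjusted threshold was 0, and 1 when centred on Sertoli genes, where 5310 of all genes passed. At an unadjusted limma p under 0.05, 1 gene was higher and 1 lower, against 3576 (18%) and 1975 (9.96%) of all genes. With quantile normalization 2 were higher and 2 lower, against 2831 and 2697 of all genes. Centred on Sertoli genes 3 were higher and 0 lower, against 8100 and 73 of all genes. Centred on round spermatid genes 0 were higher and 4 lower, against 21 and 5534 of all genes. The number higher in both Cus-1 libraries was 3 (36.6% of all genes). It was 4 centred on Sertoli genes (69.7%) and 0 centred on round spermatid genes (0.383%). The number lower in both was 4 (31.7%), against 6 with quantile normalization (37.1%) and 7 with upper-quartile scaling (35.5%). It was 0 centred on Sertoli genes (2.24%) and 9 centred on round spermatid genes (73.5%). With 1 library left out it ran from 4 to 7 (37.7% to 41.2% of all genes).

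Centred on Sertoli genes, the median turned to 0.36 for other selenoproteins, 0.11 for selenium uptake, 0.52 for cysteine homologs, 0.42 for thioredoxin partners, 0.48 for glutathione supply, 0.09 for Leydig, 0.14 for endothelial and 0.18 for blood genes. Centred on round spermatid genes, it turned to -1.18 for the selenocysteine machinery, -0.32 for spermatocyte, -0.12 for round spermatid, -0.02 for elongating spermatid and -0.99 for spermatogonial genes. The machinery median, 0.04, was also -0.08 with quantile normalization, -0.02 with upper-quartile scaling and -0.04 without busulfan 1. With 1 library left out, the median of other selenoproteins ran from -0.31 to 0.00 and that of cysteine homologs from -0.23 to 0.03, the latter also 0.03 with a 5 FPKM filter. The Lrp8 to Selenop ratio difference ran from -0.40 (busulfan 1 left out) to 0.67 and was -0.02 with Cus-1 1 left out. Turns under centring follow from its construction, which shifts every gene by the same amount and sets its own list near 0. The cause of the other turns was not tested. Counting error at the estimated depth was at most 6.2% for the 10 genes (Txnrd2). With 2 libraries a group, the spread is poorly known, and for Gpx3 and Txnrd2 the busulfan libraries lay closer than counting error.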

Other observations

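Glutathione is the reductant that the glutathione peroxidases use, and the genes of its supply were measured beside them. Of 9 genes 8 were tested, with a median log2 fold change of -0.14, and Cus-1 stood above in 1 gene and below in 4, against 36.6% and 31.7% of all tested genes. The median was -0.26 without busulfan 1. Slc3a2, a chain shared by the cystine transporter and other amino acid transporters, held 439 and 449 FPKM in the busulfan libraries against 265 and 382 FPKM. Gclm, the regulatory subunit of the first enzyme of glutathione synthesis, was at 29.0 and 37.2 FPKM against 44.4 and 44.1 FPKM, and Gsr, glutathione reductase, at 27.6 and 27.1 FPKM against 24.1 and 23.1 FPKM. Ggt5 was at -0.79 on the log2 scale (SE 0.39) and G6pdx, whose enzyme makes NADPH, at -0.57 (SE 0.17). By limma, 0 of the 8 passed the adjusted threshold (0% of all tested genes). At an unadjusted limma p under 0.05, 1 gene, G6pdx, was lower and 0 were higher, against 9.96% and 18% of all tested genes.

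Relatives of the selenoproteins that carry cysteine in place of selenocysteine also lay on both sides of 0. Of the 5 tested genes, Cus-1 stood above in 2 and below in 1 (Gpx7), against 36.6% and 31.7% of all tested genes. Their unadjusted limma p was under 0.05 in 0 genes, against 18% (higher) and 9.96% (lower) of all tested genes. Gpx6 held 5.56 and 5.16 FPKM in the busulfan libraries against 13.2 and 6.27 FPKM (0.67, SE 0.36). Gpx8, of the endoplasmic reticulum, was at 29.9 and 27.5 FPKM against 13.6 and 29.2 FPKM and overlapped. The methionine sulfoxide reductase genes Msrb3 and Msrb2 were at -0.10 (SE 0.17) and 0.16 (SE 0.19) on the log2 scale, and the median of the 5 tested genes was -0.10.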
